A study of Homo sapiens with 4 samples.

Results

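The response of scrambled-control FaDu cells to hypoxia was read as the difference between 2 RNA-Seq libraries, H-scr (hypoxia) and N-scr (normoxia). FaDu is an established human squamous carcinoma line of the hypopharynx, and both libraries came from cells carrying a lentiviral scrambled shRNA that targets no gene. Hypoxic cells were kept at 1% oxygen with 5% CO2 and nitrogen for 19 h, and the normoxic cells stayed in air with the same share of CO2. The series holds 4 libraries, the other 2 being the normoxic and hypoxic cells with TET1 knocked down (N-si and H-si), and each group was a single library. Of 62077 rows in the table of FPKM values (fragments scaled by transcript length and by the number mapped), 14585 genes were compared. Each averaged 1 FPKM or more across the libraries, had an identifier on 1 row only and spanned a locus of at least 300 bp. With 1 library a side and 1 cell line there was no replicate error, so every value below describes these libraries and none carries a test. No source states that the libraries came from separately grown cultures. A change is log2(FPKM + 0.1) in H-scr minus that in N-scr, and a gene was counted as higher or lower when this reached 1, which is 2-fold.

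Cells sense oxygen through prolyl hydroxylases, which mark the α subunits of the hypoxia-inducible factors (HIF) for destruction by the VHL ubiquitin ligase while oxygen is present. In low oxygen the α subunits persist, pair with ARNT and bind a short core sequence, the hypoxia response element, near genes of glucose metabolism, acid export, mitophagy, blood vessel growth and matrix modification. Sterol synthesis, which consumes oxygen at several steps, is governed separately by SREBP transcription factors that are released when membrane sterols are low.

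In the scrambled pair 1824 genes (12.5% of those compared) were at least 2-fold higher in hypoxia and 562 (3.85%) were at least 2-fold lower. The median change over all genes was 0.06. Rescaling by the median of ratios gave 1551 higher and 820 lower genes, and it lowered the median change by 0.11, whereas rescaling to TPM raised it by 0.12. At 4-fold the counts were 447 and 35, and at 16-fold they were 42 and 7, so the higher genes outnumbered the lower at each limit. The higher genes also lay at lower expression. Of genes with a mean FPKM between 1 and 2, 27.3% were 2-fold higher, against 3.98% of the 1306 genes above 100 FPKM, while the lower genes made up 5.94% and 3.14% of these classes. Recovered depths were 22900000 reads for N-scr and 24520000 for H-scr. Reads behind each gene gave a 95% counting interval for its log2 ratio, which covers counting error only. It excluded 0 for 1643 of the 1722 higher genes and 513 of the 535 lower genes that could be given one. Those genes were picked by the same FPKM values that give the interval, so these counts are no separate evidence of a change.

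**Figure D1:**
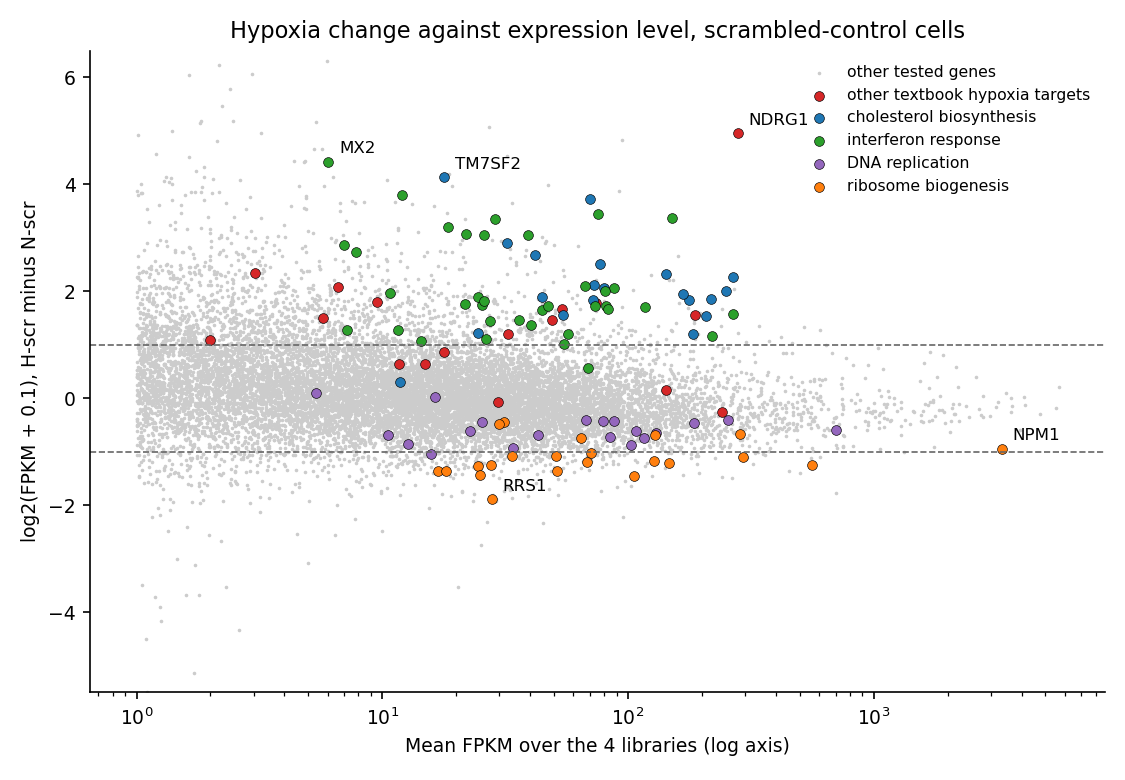
Change of each gene compared, log2(FPKM + 0.1) in H-scr minus N-scr, against its mean FPKM over 4 libraries on a log axis; dashed lines mark 2-fold and 3 genes fall outside the plotted range. Cholesterol biosynthesis and interferon response genes sit almost wholly above the upper line, and ribosome biogenesis genes around or below the lower line, with NPM1 at 4852 and 2522 FPKM.

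Epithelial markers were present in both libraries, as the label of the line says. The 7 epithelial identity markers, among them the keratins KRT5, KRT8 and KRT18, the adhesion molecule EPCAM and the basal squamous factor TP63, summed to 6339 FPKM in N-scr against 8182 in H-scr. None was at 0. The 6 fibroblast markers were all listed at 0 in N-scr and summed to 0.0996 FPKM in H-scr, with the defining genes LUM, PDGFRA, PDGFRB and POSTN at 0 in both. The 7 leukocyte markers summed to 2.63 and 4.12 FPKM, with PTPRC and CD3E at 0 in both. Among the 7, CD14 and ITGAM averaged 1 FPKM or more across the libraries, and their log2 changes in the scrambled pair lay between 0.27 and 0.90. The highest leukocyte marker in normoxia was at 1.44 FPKM, and the highest in hypoxia was at 2.17. Of 5 endothelial markers, PECAM1 and TEK were at 0 in both libraries, while CDH5, the vascular cadherin, had 8.75 FPKM in N-scr against 16.01 in H-scr and VWF had 0.160 and 1.79. The part of such markers in the results was not tested. In bulk RNA a lower level can reflect fewer cells of a type or less RNA per cell, which cannot be told apart here.

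Gene lists for the pathways described below are compared through the counts of their members at least 2-fold higher or lower and through their median change, to be read beside the 12.5%, 3.85% and 0.06 over all genes. In the TET1-si pair, which shares no library with the scrambled pair, 11.9% of genes were higher, 8.19% were lower and the median change was 0.03. Values of that pair are set beside some results, and whether the 2 hypoxia responses differ was not tested.

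**Figure D2:**
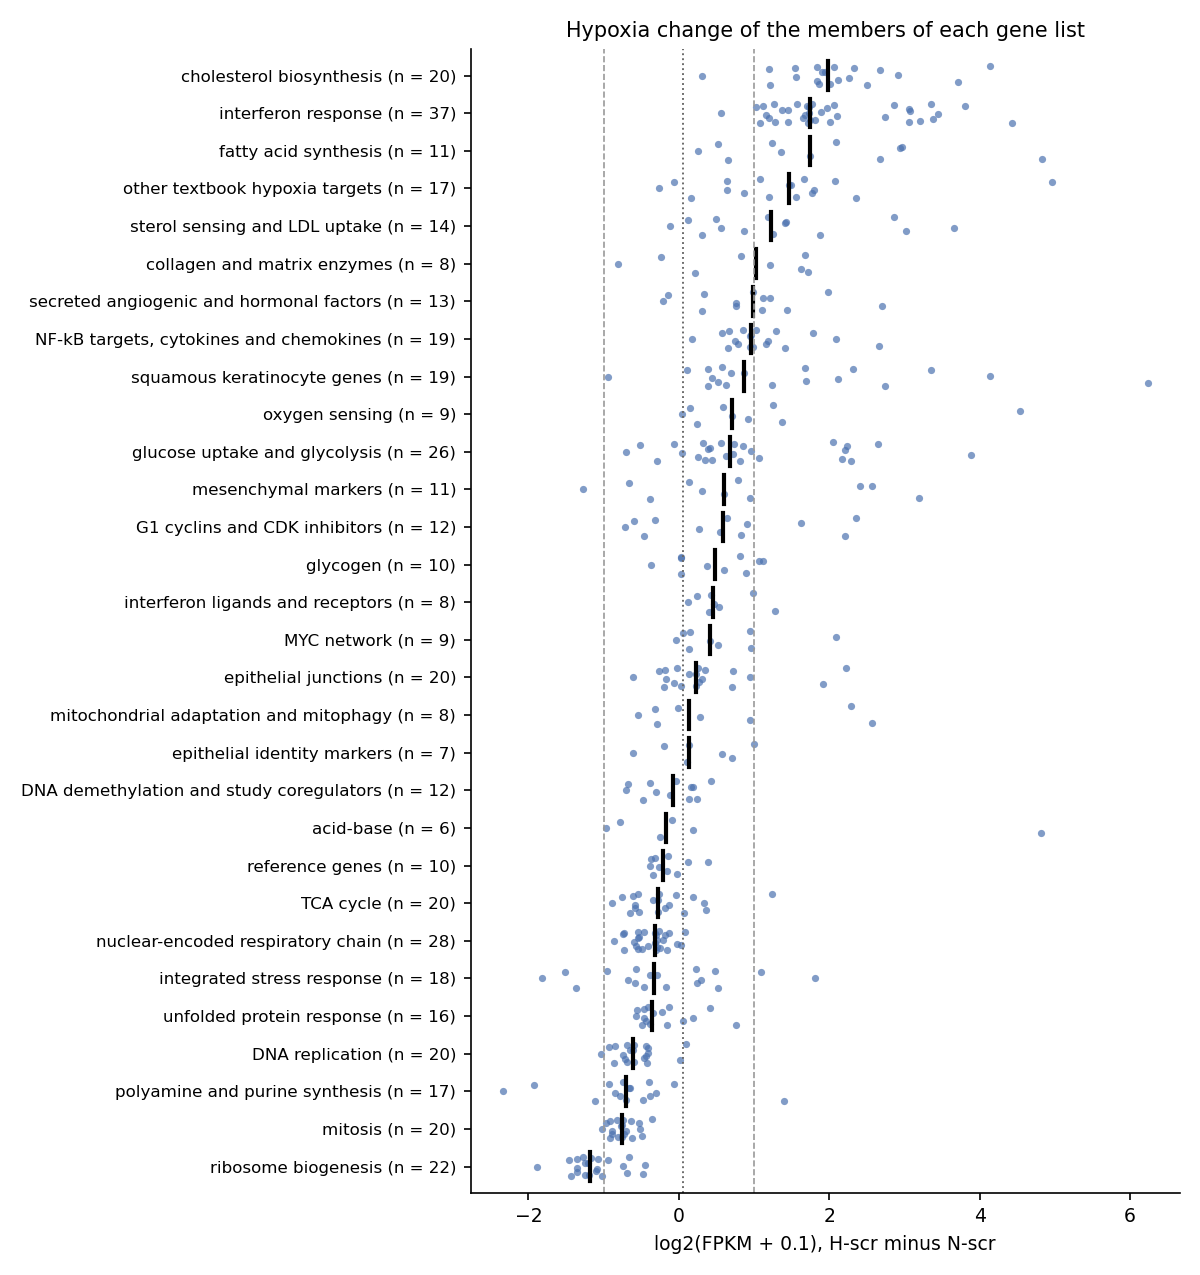
Change in the scrambled pair, log2(FPKM + 0.1) in H-scr minus N-scr, of every member compared (points) in each gene list, ordered by the list's median (black bar). The dotted line is the median over all genes (0.06) and dashed lines are 2-fold; PAICS, listed at 0 in H-scr, lies outside the plot. Medians run from 1.98 for cholesterol biosynthesis to -1.18 for ribosome biogenesis.

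Among the genes of oxygen sensing, 3 of 9 were at least 2-fold higher in hypoxia, none was 2-fold lower, and the median change was 0.70. EGLN3, an inducible prolyl hydroxylase (ENSG00000129521, chromosome 14, 34393437 to 34931980, minus strand, hg19), had 2.62 FPKM in N-scr against 62.9 in H-scr, a 24.1-fold difference with a counting interval from 4.36 to 4.84 on the log2 scale. EGLN1, the main hydroxylase of HIF-1α, had 8.99 and 21.5 FPKM, and EGLN2, the third family member, had 41.9 and 43.1. The 3 hydroxylases therefore changed rank. EGLN3 made up 4.89% of their summed FPKM in normoxia and 49.3% in hypoxia, and EGLN2 went from 78.3% to 33.8%. CITED2, which competes with HIF for the coactivator p300, had 12.8 FPKM in N-scr against 33.4 in H-scr. The partner subunit ARNT had 15.1 and 22.8 FPKM, EPAS1, which encodes HIF-2α, had 13.3 and 21.7, and VHL had 40.1 and 44.3. HIF3A lay under the minimum, at 0.00771 FPKM in N-scr against 0.547 in H-scr. HIF1A stands on several rows of the table, and its level is not reported.

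Glucose uptake and glycolysis had 8 of 26 genes at least 2-fold higher and none 2-fold lower, with a median change of 0.67. The 2-fold members were not spread evenly along the pathway. They were the glucose transporters SLC2A1 and SLC2A3, the aldolase ALDOC, the enolase ENO2, the regulatory kinase PFKFB4, the pyruvate dehydrogenase kinases PDK1 and PDK2 and the lactate exporter SLC16A3. Steps carried by a single abundant enzyme differed less. PGK1 had 392.6 FPKM in N-scr against 708.9 in H-scr, GPI had 269.5 and 366.0, TPI1 had 731.4 and 952.5, and PKM had 1622 and 2023. GAPDH, the most abundant of them, had 3204 and 3072 FPKM, with a ratio of 0.959.

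Within enzyme families, the minor member usually showed the larger ratio. SLC2A1, the main glucose transporter of epithelial tumours, had 101.3 FPKM in N-scr against 417.8 in H-scr, and still made up 98.3% of the summed FPKM of SLC2A1 and SLC2A3 in hypoxia. ALDOC, a brain-type aldolase, had 17.3 and 257.4 FPKM, against 1661 and 2923 for the housekeeping ALDOA, so that its share of both went from 1.03% to 8.09%. ENO2, the neuronal enolase, had 10.7 and 48.6 FPKM while ENO1 had 1190 and 1219. HK1 and HK2, the hexokinases, had similar ratios and kept their proportions, with HK2 at 24.2% of both in N-scr and 24.5% in H-scr.

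The last steps to lactate showed exchanges of rank. LDHA, the subunit that favours lactate formation, had 887.5 FPKM in N-scr against 1370 in H-scr, while LDHB, which favours lactate use, had 964.9 and 593.8. LDHA accordingly made up 47.9% of their sum in normoxia and 69.8% in hypoxia. SLC16A3 (MCT4), a lactate exporter, had 29.9 and 138.9 FPKM, whereas SLC16A1 (MCT1) had 125.7 and 102.5, and the share of SLC16A3 went from 19.2% to 57.5%. PDK1, which inhibits pyruvate dehydrogenase and so the making of acetyl-CoA from pyruvate, had 1.71 and 8.77 FPKM, PDK2 had 11.8 and 24.9, and PDK3 had 10.8 and 15.9. The TET1-si pair gave the glycolysis list 5 genes 2-fold higher and a median change of 0.21.

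**Figure D3:**
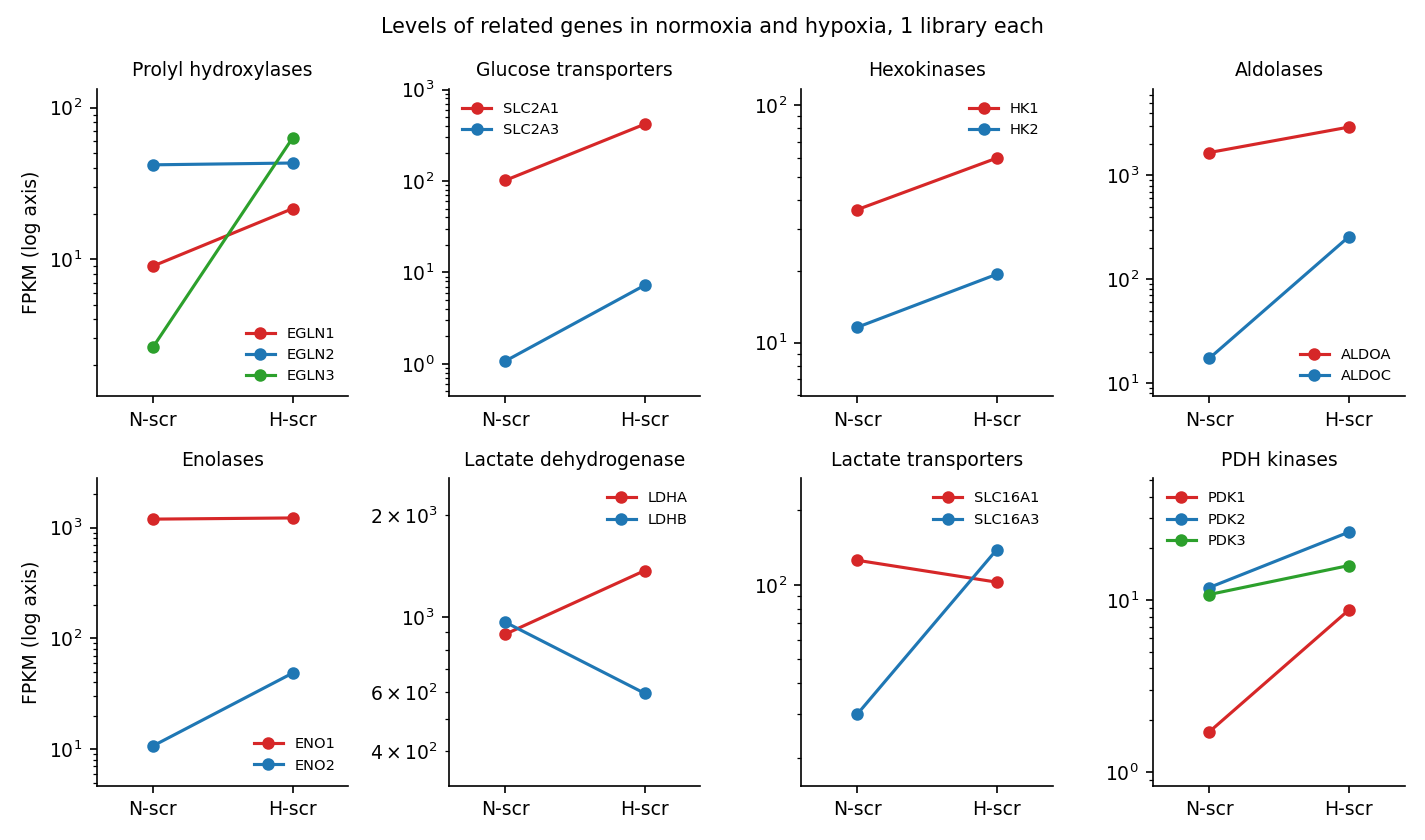
FPKM in N-scr and H-scr (log axes, which differ between panels) of related genes of oxygen sensing and glucose metabolism, 1 library a point. EGLN3 overtakes EGLN1 and EGLN2, LDHA and LDHB exchange order, and SLC16A3 passes SLC16A1 in hypoxia.

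Of 10 glycogen genes 2 were at least 2-fold higher and none was 2-fold lower, with a median of 0.49. GYS1, the muscle-type glycogen synthase, had 19.3 FPKM in N-scr against 41.8 in H-scr, and the branching enzyme GBE1 had 6.52 and 11.6. PYGL, a glycogen phosphorylase, had 94.5 and 72.8 FPKM, so genes of synthesis and of breakdown differed in direction. Acid-base genes had a median of -0.18, with 1 of 6 at least 2-fold higher and none 2-fold lower. That gene was CA9, the tumour-associated carbonic anhydrase (ENSG00000107159, chromosome 9, 35673853 to 35681156, plus strand, hg19), with 0.1802 FPKM in N-scr against 7.82 in H-scr. The interval of its log2 ratio ran from 4.17 to 6.78. The red-cell type enzyme CA2 had 24.3 and 12.4 FPKM and remained the more abundant of them in hypoxia.

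BNIP3 and BNIP3L, receptors that tether mitochondria to autophagosomes, were the 2 of 8 genes of mitochondrial adaptation that were 2-fold higher. BNIP3 had 11.5 FPKM in N-scr against 69.2 in H-scr, and BNIP3L had 20.7 and 101.4. Their summed FPKM was 32.2 and 170.5, and the share of each changed little. COX4I1, a cytochrome oxidase subunit that hypoxia is known to exchange for COX4I2 in some cells, had 551.0 and 442.9 FPKM, and COX4I2 was listed at 0 in all 4 libraries. NDUFA4L2, another mitochondrial HIF target, lay under the minimum at 0.747 and 0.429 FPKM.

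Secreted factors had 6 of 13 genes at least 2-fold higher and none 2-fold lower, with a median of 0.99. VEGFA, the principal angiogenic growth factor, had 80.2 FPKM in N-scr against 172.2 in H-scr, a 2.15-fold difference. STC1, a secreted glycoprotein hormone, had 0.688 and 5.01 FPKM and the largest change, 2.70. IGFBP3, which binds insulin-like growth factors, had 68.1 and 148.4 FPKM. VEGFC, a lymphatic growth factor, had 4.53 and 5.71, and the placental growth factor PGF had 0.888 and 1.86. LEP was listed at 0 in both libraries and EPO, the classical HIF target of kidney, had 0.117 and 0.0728 FPKM. Enzymes that modify collagen had 4 of 8 members 2-fold higher, none 2-fold lower and a median of 1.02. They were the lysyl oxidases LOXL2 (33.4 and 110 FPKM) and LOXL4 (4.96 and 11.7), the lysyl hydroxylase PLOD2 (36.0 and 115) and the prolyl hydroxylase subunit P4HA1 (15.4 and 47.6). PLOD3 went the other way, with 74.6 FPKM in N-scr against 42.5 in H-scr, and P4HB, the abundant partner of P4HA1, had 1700 and 1443.

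Of 17 further textbook targets of hypoxia 11 were at least 2-fold higher and none 2-fold lower, with a median of 1.46. NDRG1, a stress-responsive cytoplasmic protein and a common marker of hypoxia, had 15.9 FPKM in N-scr against 497.0 in H-scr, the largest change in the list. DDIT4, an inhibitor of mTORC1 signalling, had 119.1 and 352.1 FPKM. BHLHE40, a transcriptional repressor, had 40.7 and 139.6, and ANKRD37 had 0.989 and 5.45. The histone demethylases KDM3A (21.9 and 69.5 FPKM), KDM4B (2.37 and 6.87) and KDM4C (13.7 and 37.8) were higher by similar ratios. Other genes of the list stayed near their normoxic level. ERO1A, an oxidase of the endoplasmic reticulum, had 138.8 and 154.9 FPKM, and TFRC, the transferrin receptor, had 279.4 and 233.2.

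Promoters were searched for the core of the hypoxia response element, written ACGTG, on both strands. RefSeq promoter windows on GRCh38.p14, 250 bases before to 50 after the start, were available with a single start for 6785 of the 11901 protein-coding genes compared. The core was found in 27.9% of these, in 21.2% of those at least 2-fold higher and in 36.7% of those at least 2-fold lower. It was therefore no more frequent among the higher genes at large than in the background. Among the textbook targets it stood in 7 of 9 promoters, and among glycolysis genes in 6 of 13. It stood in 1 of 7 promoters of secreted factors and in 2 of 7 of collagen enzymes, and the mitosis list, whose genes were lower, held it in 6 of 13. The core is also written GCGTG. With either form allowed, a match stood in 65.1% of all promoters, 51.5% of the higher genes and 74.6% of the lower genes. By list this gave 6 of 7 secreted factors, 12 of 13 glycolysis genes and 4 of 7 collagen enzymes. For the textbook targets it gave 7 of 9, and for mitosis 10 of 13. The windows below are shown because they belong to 5 genes with large changes and a match before the start. These were chosen among genes of oxygen sensing, glucose metabolism, acid-base balance, mitophagy, matrix, secreted factors and the further textbook targets. Capitals mark the core or its reverse complement CACGT, and each is read along the gene's strand. The windows lie at chr9:35673898-35673927 (plus strand), chr17:28576906-28576935 (minus), chr10:131982039-131982068 (minus), chr4:185396686-185396715 (plus) and chr12:6914450-6914479 (plus), in the order given.

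CA9: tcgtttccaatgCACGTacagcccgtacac
ALDOC: ccccggaggagtCACGTagctctgcgacat
BNIP3: cgcacgcgccgcACGTGccacacgcacccc
ANKRD37: cagtgtttgtgtACGTGcggccgtggcggg
ENO2: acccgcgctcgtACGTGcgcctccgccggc

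The core of CA9 began 18 bases before the start and that of ENO2 118 bases before it. ALDOC and ANKRD37 each held 3 matches before the start and BNIP3 held 2, of which the nearest to the start is shown. A match is a description of letters only, and no match in such a window says nothing of sites farther away.

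Cholesterol biosynthesis had 19 of its 20 genes at least 2-fold higher in hypoxia, none 2-fold lower and a median change of 1.98, the highest of the lists with 6 or more genes compared. The higher genes covered the route from end to end. At its entry, the thiolase ACAT2 had 12.2 FPKM in N-scr against 92.1 in H-scr, and HMGCS1, which makes HMG-CoA, had 70.8 and 355.8. Along the isoprenoid steps, MVD had 36.2 and 206.0 and IDI1 had 48.0 and 200.6. The exception was PMVK, phosphomevalonate kinase, with a log2 change of 0.31, 7.47 FPKM in H-scr and an interval from -0.06 to 0.69.

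The steps after squalene were no less affected, and several of these consume molecular oxygen. LSS, which closes squalene epoxide into lanosterol, had 15.7 FPKM in N-scr against 207.8 in H-scr, a 13.2-fold difference. CYP51A1, the lanosterol demethylase, had 53.7 and 192.4 FPKM, MSMO1, a sterol methyl oxidase, had 42.3 and 183.5, and SC5D, a sterol desaturase, had 32.5 and 95.5. TM7SF2 (ENSG00000149809, chromosome 11, 64879317 to 64883856, plus strand, hg19), a sterol reductase, showed the largest change of the list with 2.403 and 44.01 FPKM. DHCR7, the last enzyme of the Kandutsch-Russell branch, had 147.8 and 710.6 and was among the 10 genes that gained most FPKM of all. Of these 20 genes 2 in the TET1-si pair, LSS and TM7SF2, were at least 2-fold higher and the median was 0.41.

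Regulators and uptake receptors of the sterol system were also higher, in 8 of 14 genes, with a median of 1.22 and none 2-fold lower. INSIG1, the endoplasmic reticulum anchor that retains SREBP when sterols are plentiful, had 23.67 FPKM in N-scr against 171.9 in H-scr, whereas its relative INSIG2 had 13.9 and 25.4. The SREBP genes themselves, SREBF1 (105.0 and 280.3 FPKM) and SREBF2 (84.9 and 193.4), were both more than 2-fold higher. SCAP, the escort of SREBP, had 22.1 and 20.3 FPKM. ABCA1, which exports cholesterol and is driven by sterol-activated LXR receptors, lay under the minimum at 0.216 and 0.190.

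Fatty acid synthesis had 8 of 11 genes at least 2-fold higher, none 2-fold lower and a median of 1.74. ACSS2, which makes acetyl-CoA from acetate (ENSG00000131069, chromosome 20, 33459949 to 33515769, plus strand, hg19), had 10.0 FPKM in N-scr against 286.0 in H-scr, a 28.6-fold difference. ACLY, which makes acetyl-CoA from citrate, had 74.9 and 251.2 FPKM. SCD, the stearoyl-CoA desaturase and an oxygen-consuming enzyme, had 79.5 and 506.3, and the fatty acid synthase FASN had 138.9 and 357.1. ACSL1, which activates fatty acids, had 9.76 and 75.7 FPKM. ELOVL6, an elongase, had 46.6 and 55.9 and was among the 3 below 2-fold. SCD alone was 2-fold higher in the TET1-si pair and the median was 0.11.

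A sterol response element, searched as TCACNCCAC on both strands, was found in 1.16% of the 6785 promoters and in 2.87% of those at least 2-fold higher. None of the 11 cholesterol biosynthesis promoters that could be searched held these letters in the window. SREBF2 did, 133 bases before its start at chr22:41832962-41832991 (plus strand, GRCh38.p14, from RefSeq). It is shown because it was the sole match before the start among the sterol and fatty acid genes, with the element in capitals.

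SREBF2: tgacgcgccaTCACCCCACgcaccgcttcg

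The interferon response held more 2-fold genes than any other list. All but 1 of its 37 genes were at least 2-fold higher in hypoxia, none was 2-fold lower, and the median change was 1.75. Antiviral effectors led. MX2, a GTPase that blocks viral nuclear entry (ENSG00000183486, chromosome 21, 42733870 to 42781317, plus strand, hg19), had 0.486 FPKM in N-scr against 12.5 in H-scr. MX1 had 7.24 and 74.6 FPKM, OAS1, which makes the 2-5A activator of RNase L, had 19.9 and 218.0, and IFI27 had 46.1 and 478.6. The ubiquitin-like modifier ISG15 had 155.3 and 461.2, and IFIT1, which binds foreign RNA, had 34.7 and 149.8.

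The signalling factors of the pathway were part of the same change. STAT2 had 40.2 FPKM in N-scr against 163.0 in H-scr, its partner IRF9 had 75.2 and 245.1, and IRF7, which amplifies interferon production, had 7.27 and 61.5. IRF1 was the member below 2-fold, at 54.3 and 80.4 FPKM. The RNA sensors DDX58 (RIG-I) and IFIH1 (MDA5) had 10.5 and 35.9, and 7.24 and 17.6 FPKM. Among the interferons themselves, IFNB1, IFNA1 and IFNG were near or below detection. IFNB1 was listed at 0.0695 and 0 FPKM, and IFNA1 and IFNG at 0 in both libraries. IFNL1, a type III interferon whose mean lay under the minimum, had 0.338 FPKM in N-scr against 1.71 in H-scr. Its interval ran from 0.94 to 4.47.

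Of 8 interferon receptor and kinase genes that passed the minimum, IFNLR1, the receptor chain for type III interferons, was the member at least 2-fold higher, with 0.925 and 2.39 FPKM. The type I receptor chains IFNAR1 (67.9 and 73.9 FPKM) and IFNAR2 (8.43 and 10.0) stayed close to their normoxic levels. In the TET1-si pair 14 of the 37 response genes were 2-fold higher, 1 was 2-fold lower and the median was 0.63.

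The interferon-stimulated response element, searched as AAANNGAAA with TTTCNNTTT on the other strand, stood in 16 of the 21 promoters of this list that could be searched. Over all 6785 promoters it was found in 6.47%, and in 11.8% of those at least 2-fold higher and 7.20% of those at least 2-fold lower. Promoter base composition moved with it, since the median GC content was 53.7% in the list and 65.7% over all promoters, and among the 2209 promoters of lowest GC content the element stood in 13.5%. The windows shown belong to 5 response genes with large changes and a match before the start, at chr12:112906899-112906928 (plus strand), chr1:78620366-78620395 (plus), chr1:27672265-27672294 (minus), chr10:89392510-89392539 (plus) and chr7:93148413-93148442 (minus). They are RefSeq sequence on GRCh38.p14 and capitals mark the element.

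OAS1: tctgatttgcAAAAGGAAAgtgcaaagaca
IFI44L: cctagtgaggAAAAAGAAAgttagtggcag
IFI6: cagagtgcagAAATAGAAActccgacaggg
IFIT1: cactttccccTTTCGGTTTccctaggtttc
SAMD9L: ttctaaagcaAAACTGAAActgtctatact

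The elements shown began between 47 bases before the start, in SAMD9L, and 103 bases before it, in IFIT1. IFI6 and IFIT1 each held 3 matches before the start.

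Inflammatory genes were higher as well, although by less. Of 19 NF-kB targets, cytokines and chemokines 8 were at least 2-fold higher, none was 2-fold lower and the median change was 0.96. CXCL8 (IL8), a neutrophil chemokine, had 17.0 FPKM in N-scr against 41.8 in H-scr. CCL20 had 1.90 and 8.40, ICAM1, a leukocyte adhesion molecule, had 36.8 and 83.9, and the feedback inhibitors TNFAIP3 and NFKBIA had 49.7 and 96.7, and 117.4 and 197.2. CXCL10 and CXCL11, chemokines that interferon also induces, had 0.998 and 6.82, and 1.16 and 3.24 FPKM. IL6 had 3.51 and 6.83 with an interval from 0.54 to 1.37. All 19 changes lay above 0 in the scrambled pair, while in the TET1-si pair no member was 2-fold higher, 7 were 2-fold lower and the median was -0.45.

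Cell-cycle genes were mostly lower in hypoxia, and by less than 2-fold in nearly every case. All 20 mitosis genes had a change below 0, from -0.36 to -1.02, with a median of -0.76, none was 2-fold higher and UBE2C was the member at least 2-fold lower. CCNB1, the mitotic cyclin, had 461.7 FPKM in N-scr against 248.2 in H-scr, CDK1 had 254.7 and 145.0, and the proliferation marker MKI67 had 63.6 and 49.4. All 20 were at least 2-fold lower in the TET1-si pair, with a median of -1.66.

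The DNA replication list had 1 of 20 genes at least 2-fold lower, ORC1 (29.0 and 14.1 FPKM), none 2-fold higher and a median of -0.61. The 6 subunits of the MCM helicase had changes from -0.42 in MCM5 to -0.72 in MCM2. RRM2, the regulated subunit of ribonucleotide reductase, had 137.6 and 75.5 FPKM, and the sliding clamp PCNA had 195.8 and 125.3. The cyclins E stood apart from the rest, with CCNE1 at 4.34 and 4.65 FPKM and CCNE2 at 13.8 and 14.0. Of the same genes 19 were 2-fold lower in the TET1-si pair, with a median of -2.03.

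Of 7 inhibitors of cyclin-dependent kinases 3 were at least 2-fold higher. CDKN1A (p21) had 8.22 FPKM in N-scr against 25.6 in H-scr, CDKN2B (p15) had 3.66 and 17.4, and CDKN1C (p57) had a change of 2.36 on approximately 14 and 92 reads, and no other of the 12 G1 cyclins, kinases and inhibitors was 2-fold higher. CDKN2A, CDKN2C and CDKN2D had changes of 0.82, 0.63 and 0.91, and CDKN1B (p27) had 46.9 and 56.2 FPKM. Their kinase CDK4 had 273.1 and 165.8 and the D-type cyclin CCND1 had 241.9 and 175.3, and none of the list was 2-fold lower.

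E2F sites, which drive replication genes at the start of S phase, were searched as TTTGGCGC, TTTCCCGC, TTTGCCGC and TTTCGCGC on both strands. They stood in 10 of the 13 replication promoters that could be searched, in none of 13 mitosis promoters and in 5.69% of all 6785. Genes at least 2-fold lower held them in 5.68% of promoters and genes at least 2-fold higher in 2.39%. The windows are those of 4 replication genes with low changes and a match before the start, at chr16:85688967-85688996 (minus strand), chr16:88803743-88803772 (plus), chrX:24693770-24693799 (plus) and chr2:135876511-135876540 (minus), RefSeq on GRCh38.p14, with the site in capitals.

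GINS2: ctctcgccgtgGCGGGAAAacggcggccgc
CDT1: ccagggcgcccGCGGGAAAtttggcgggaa
POLA1: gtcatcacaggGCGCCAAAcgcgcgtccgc
MCM6: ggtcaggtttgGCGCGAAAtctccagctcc

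GINS2 and POLA1, subunits of the replicative helicase complex and of the priming polymerase, had changes of -0.92 and -0.69. CDT1, which loads the helicase, and MCM6, a part of it, had -0.85 and -0.69.

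Ribosome biogenesis was the list with the lowest median, -1.18, with 16 of 22 genes at least 2-fold lower and none 2-fold higher. NPM1, an abundant nucleolar chaperone, had 4852 FPKM in N-scr against 2522 in H-scr and lost more FPKM than any other gene named here. NCL, nucleolin, had 861.8 and 362.8 FPKM. NOLC1, a scaffold of small nucleolar ribonucleoproteins, had 189.1 and 68.8, and POLR1B, a subunit of RNA polymerase I, had 46.2 and 19.4. RRS1, needed for assembly of the large subunit, showed the largest change, -1.88, at 51.6 and 13.9 FPKM. The TET1-si pair gave nearly the same picture, with 16 of 22 genes 2-fold lower and a median of -1.24.

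Polyamine and purine synthesis genes had 4 of 17 members at least 2-fold lower, or 3 without PAICS (a listed 0), and SAT1 alone above the limit, with a median of -0.70. ODC1, the rate-limiting enzyme of polyamine synthesis (ENSG00000115758, chromosome 2, 10580094 to 10588630, minus strand, hg19), had 89.4 FPKM in N-scr against 17.6 in H-scr. Spermidine synthase, SRM, had 59.0 and 15.5 FPKM. SAT1, which acetylates spermidine and so starts polyamine breakdown, was the member 2-fold higher, at 93.9 and 247.9. In purine synthesis PFAS had 58.3 and 27.0 FPKM and GART had 296.1 and 176.8. PAICS was listed at 176.0 FPKM in N-scr, at 0 in H-scr, at 163.9 in N-si and at 47.6 in H-si. A listed 0 may be a quantification that failed rather than a missing transcript, so no fold is given.

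These lists are classical targets of MYC, and MYC itself was level, with 52.8 FPKM in N-scr against 54.8 in H-scr and an interval from -0.01 to 0.11. Among genes for proteins that oppose MYC at the same sites, MXD4 was the member at least 2-fold higher, with 3.92 and 17.0 FPKM, and MXI1 had 7.93 and 15.3. MAX, the shared partner, had 65.9 and 73.0. Over the 9 members of the MYC network the median change was 0.41, with 1 gene 2-fold higher and none 2-fold lower.

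The E-box CACGTG, to which MYC and its opponents bind and which contains the core ACGTG, stood in 5 of the 12 ribosome biogenesis promoters that could be searched and in 10.7% of all. Among the textbook hypoxia targets, most of them higher, it stood in 4 of 9. It was found in 58 of the 264 promoters of genes at least 2-fold lower and in 7.66% of those at least 2-fold higher. In the group of middle GC content, where the medians of the promoters were 65.3%, 65.7% and 65.7% GC, the shares were 26.7% for the lower genes, 9.88% for the higher genes and 12.2% for all. The core ACGTG overlaps the E-box, and it stood in 9 of the 12 ribosome biogenesis promoters. Not all ribosome biogenesis genes were considered for display, and none of those considered held an E-box wholly before the start. The windows shown are those of 3 polyamine and purine genes with an E-box before the start, RefSeq on GRCh38.p14 at chr1:11060200-11060229 (minus strand), chr2:215312001-215312030 (plus) and chr4:56435780-56435809 (minus), with the E-box in capitals.

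SRM: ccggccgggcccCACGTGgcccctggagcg
ATIC: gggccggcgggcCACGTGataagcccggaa
PPAT: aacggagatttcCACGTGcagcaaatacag

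ATIC and PPAT, enzymes of purine synthesis, had changes of -0.85 and -0.65, with 121.5 and 67.4 FPKM for ATIC and 24.6 and 15.7 for PPAT.

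**Figure D4:**
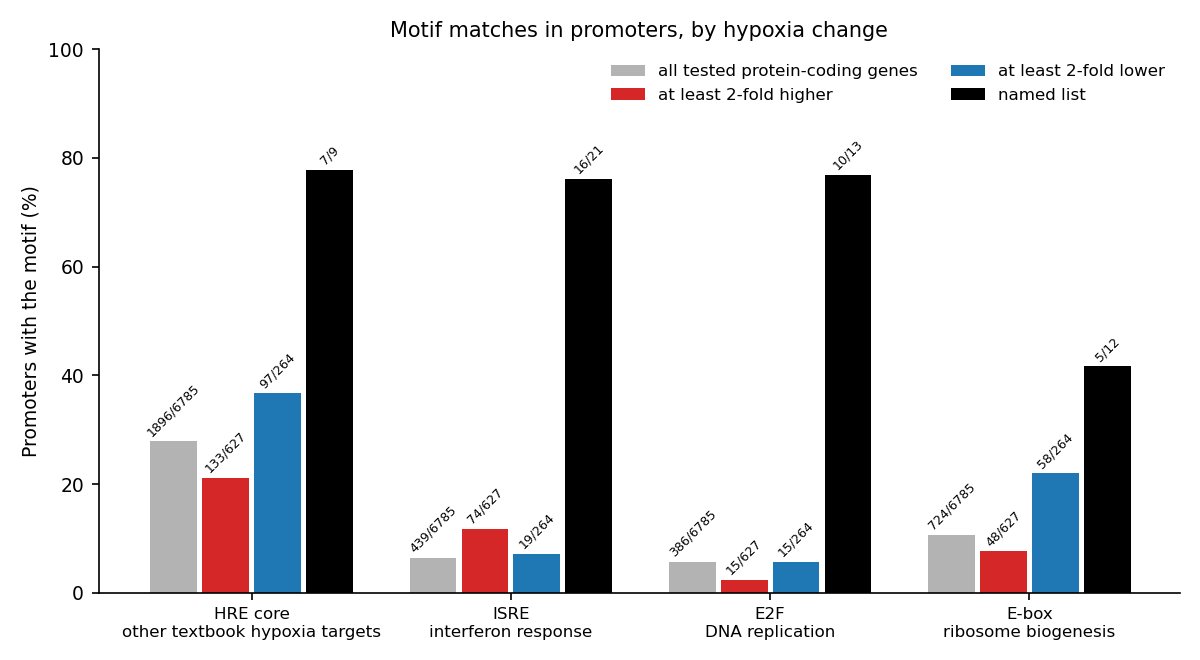
Share of promoters holding each of 4 motifs, the sterol response element not being plotted (bars, in percent, with the counts above) among all protein-coding genes with a single promoter, those at least 2-fold higher or lower in H-scr and 1 named list a motif. For these 4 motifs the named lists reach 41.7% to 77.8%, and the 2-fold higher and lower genes lie between 2.39% and 36.7%.

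The medians of mitochondrial energy genes were below 0, and so were those of abundant genes at large, at -0.07 for all genes between 20 and 100 FPKM and -0.22 for all above 100 FPKM. Nuclear genes of the respiratory chain had a median of -0.32, with 26 of 28 below 0 but none 2-fold lower or higher. NDUFB3, a complex I subunit, had 95.2 FPKM in N-scr against 52.2 in H-scr, and UQCRC1, a core subunit of complex III, had 231.1 and 234.7. Mitochondrially encoded mRNAs, 11 of which passed the minimum, had a median of -0.12 and changes from -0.58 to 0.22. Of 20 genes of the citric acid cycle none was 2-fold lower and IDH2, which can run in the reductive direction, was 2-fold higher with 29.2 and 68.9 FPKM. The median of that list was -0.28, with citrate synthase, CS, at 171.1 and 101.1 FPKM.

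Stress response genes differed in direction among themselves. The 16 unfolded protein response genes had a median of -0.36, with 4 members above 0 and 12 below and none 2-fold higher or lower, and HSPA5 (BiP), the main chaperone, had 203.6 FPKM in N-scr against 159.9 in H-scr. Of 18 integrated stress response genes 2 were higher and 3 lower by the 2-fold limit, with 7 members above 0, 11 below and a median of -0.33. The lower genes were PSAT1 (82.5 and 23.3 FPKM) and ASNS (64.7 and 25.02), which make serine and asparagine, and CHAC1 (3.69 and 1.22), which degrades glutathione. The higher genes were the lipoprotein receptor VLDLR, at 1.90 and 6.91 FPKM, and the transcription factor ATF3, at 6.49 and 14.0. ATF4, the factor behind this response, had 387.8 and 343.8 FPKM.

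Because the study followed the epithelial-mesenchymal transition, junction and mesenchymal genes were compared too. Of 20 epithelial junction genes 2 were at least 2-fold higher, the tight-junction protein CLDN1 (28.5 and 133.1 FPKM) and the desmosomal PKP1 (2.69 and 10.4), none was 2-fold lower, and the median was 0.23. CDH1 (E-cadherin) had 179.3 and 291.9 FPKM, and EPCAM had 154.5 and 101.6. The mesenchymal list had 11 of its 20 genes above the minimum, and these differed in direction. S100A4 (2.61 and 24.5 FPKM) and the collagens COL1A1 (5.29 and 28.6) and COL5A1 (0.624 and 4.18) were the 3 at least 2-fold higher. CDH2 (N-cadherin) was 2-fold lower, at 10.8 and 4.39. The median was 0.60, VIM lay under the minimum at 0.355 and 0.406, and the repressors SNAI2 and TWIST1 had 26.8 and 29.3, and 5.83 and 3.63 FPKM.

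Squamous keratinocyte genes had 9 of 19 members at least 2-fold higher, none 2-fold lower and a median of 0.87. Several of these are genes of differentiation. The cornified envelope enzyme TGM1 had 7.89 FPKM in N-scr against 39.6 in H-scr, S100A9, a calcium-binding alarmin, had 2.998 and 31.7, and SPRR1B, a cornified envelope precursor, had 0.107 and 3.55. SPRR1A was listed at 0 in N-scr and at 7.42 in H-scr. Basal keratins differed less in ratio and more in amount, with KRT5 at 2673 and 3992 FPKM and KRT17 at 1503 and 2741, and reads shared with close paralogs make the level of any single keratin uncertain. TP63 had 50.7 and 54.8 FPKM, and SOX2, a squamous lineage factor, had 11.97 and 6.20. The TET1-si pair had 12 members 2-fold higher, with a median of 1.36.

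Genes of DNA methylation and demethylation, listed with several coregulators, showed no 2-fold change among 12 genes above the minimum. Their median was -0.08, which TPM turned to 0.04. TET2 had 2.67 FPKM in N-scr against 3.63 in H-scr and TET3 had 5.08 and 4.09. TET1 itself, the 5-methylcytosine dioxygenase, lay under the minimum at 0.129 and 0.331 FPKM, on approximately 28 and 76 reads, with an interval from 0.70 to 2.02. WDR5, a chromatin adaptor, had 89.2 and 55.7, and DNMT1, the maintenance methyltransferase, had 331.0 and 237.9 FPKM. Of 10 reference genes often used to scale expression none differed 2-fold, and their median was -0.21. ACTB had 1447 and 1117 FPKM.

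The protein-coding genes with the largest changes at a mean FPKM of at least 5 joined several of these groups. Of the 15 highest, 14 are named here. They were NDRG1, ACSS2, COX6B2, EGLN3, MX2, YPEL3, TM7SF2, LY6D, CLIC3, TNNT3, ALDOC, XAF1, LSS and HSH2D, with changes from 4.96 to 3.69. MX2 and XAF1 stand in the interferon list above and TM7SF2 and LSS in that of cholesterol biosynthesis. COX6B2, the testis isoform of a cytochrome oxidase subunit, had 0.172 FPKM in N-scr against 6.81 in H-scr on approximately 5 and 226 reads, so its interval was wide, from 4.16 to 7.04. LY6D, a squamous surface protein, had 1.505 and 27.0. In the TET1-si pair these 14 also had positive changes, from 0.92 for ACSS2 to 5.70 for TNNT3.

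The 15 lowest were GAL, AC005280.1, MARC1, ODC1, RPL17-C18ORF32, PYCR1, POLR3G, IL1RL1, TIPIN, SRM, LYAR, RRS1, IPO4, LIAS and PSAT1, with changes from -2.74 to -1.82. GAL, the precursor of the neuropeptide galanin (ENSG00000069482, chromosome 11, 68451247 to 68458643, plus strand, hg19), had 61.3 FPKM in N-scr against 9.08 in H-scr. PYCR1, the last enzyme of proline synthesis, had 69.4 and 14.9, LIAS, which makes the lipoyl cofactor of pyruvate dehydrogenase, had 32.8 and 9.11, and POLR3G, a subunit of RNA polymerase III, had 27.2 and 6.52. RPL17-C18ORF32 is a readthrough model that overlaps RPL17, with which it can share reads. AC005280.1 differed from the rest in the TET1-si pair, where its change was -0.15 against -1.31 to -3.10 for the other 14.

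**Figure D5:**
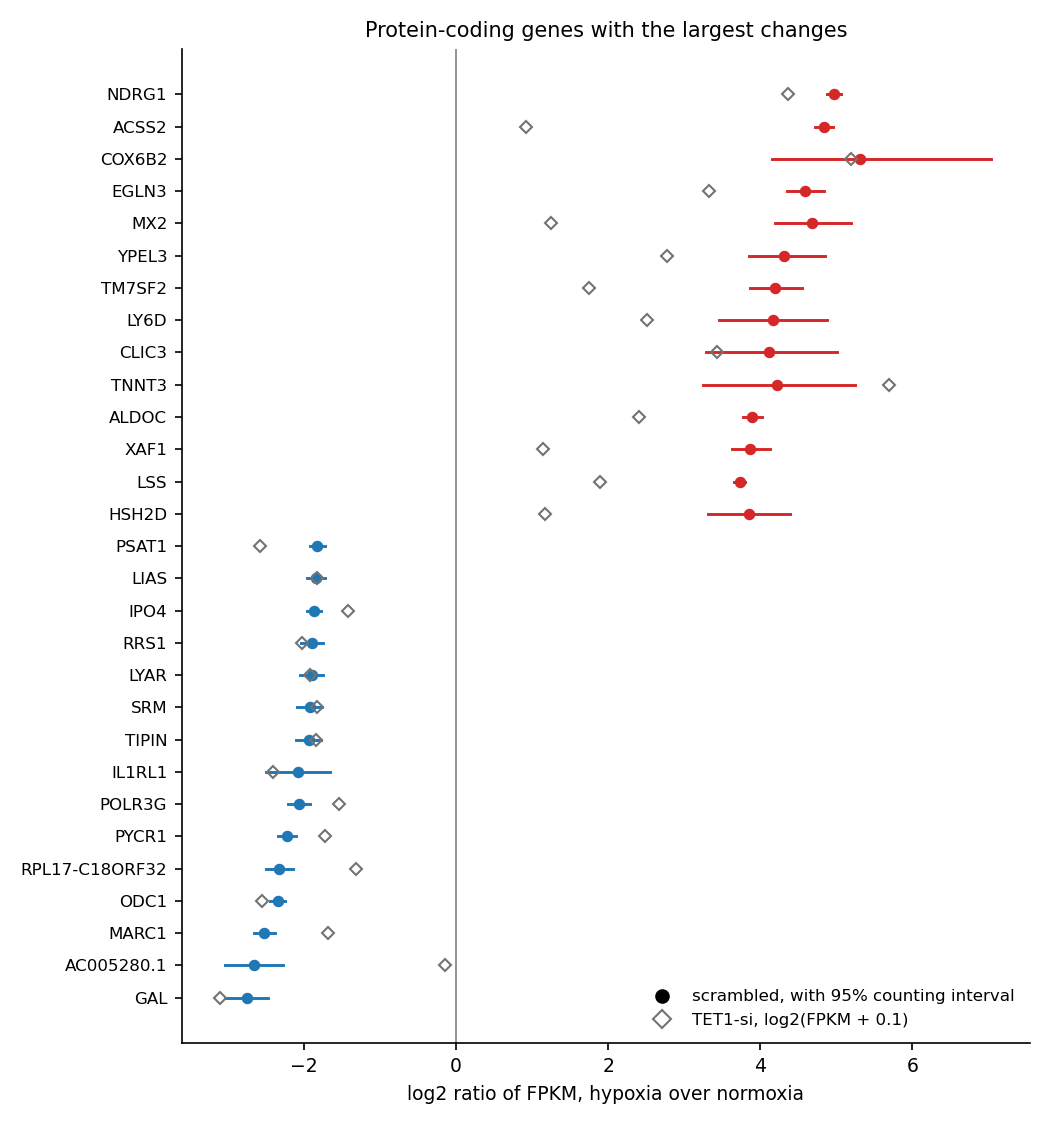
log2 ratio of FPKM in H-scr over N-scr (filled circles, with the 95% counting interval as a bar) for 14 of the 15 protein-coding genes with the highest changes and the 15 with the lowest; open diamonds give the change in the TET1-si pair. Intervals are widest for genes of low normoxic level such as COX6B2. The genes were chosen for the size of these changes.

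Ranked by the amount of FPKM gained rather than by ratio, the 10 leading genes were KRT5, ALDOA, KRT17, FTH1, CTTN, DHCR7, TPT1, F3, ANXA2 and S100A10. FTH1, the ferritin heavy chain, had 5169 FPKM in N-scr against 6012 in H-scr, a ratio of 1.16, and F3, the initiator of blood coagulation, had 945.2 and 1458. The 10 largest losses were those of NPM1, RPL14, HSPA8, PTP4A1, HSP90AB1, PPIA, HSP90AA1, RPL39, RPL38 and CFL1. These hold 3 cytosolic chaperones, HSPA8 (2350 and 1253 FPKM), HSP90AB1 (1970 and 985) and HSP90AA1 (1932 and 1005), and 3 ribosomal proteins. PTP4A1, a phosphatase, had 1450 and 426.5 FPKM, the lowest ratio among them, 0.294.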

How the data were processed

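RNA sequencing of 4 FaDu libraries was used, with groups taken from the sample labels. FPKM per gene was used as the authors deposited it. The submitters' processing notes name TopHat, Cufflinks and hg19, and their versions are not given in the sources used here. TruSeq mRNA libraries were read at 100 bp, as single ends per the labels and as paired ends per the study's methods. Strand was not stated to be kept, so overlapping genes can share reads. Start positions counted from 0 in the file and 1 was added. The 232 rows of 111 repeated gene identifiers were left out, and no sample column was left unused.

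Changes are log2(FPKM + 0.1), a scale that understates the change of low genes. Genes needed a mean FPKM of at least 1 and a locus of at least 300 bp. With 1 library a group no test was run. Library depth was recovered from 5210 genes of 1 exon, in which 97.0% to 97.7% of low values became whole reads within 0.05. Approximate reads came from multiplying FPKM by depth and by the canonical GENCODE v44lift37 transcript length less 212 bp, and intervals of log2 ratios are exact (Clopper-Pearson, 95%). Depths and intervals were tested on simulated data. The gene lists, 33 in all, and the genes compared were chosen with earlier results of these data known. Genes named are members of those lists, genes the study names, the 15 largest changes each way and the 10 largest gains and losses in FPKM, the last 2 kinds among protein-coding genes averaging 5 FPKM or more and above 0 in both scrambled libraries. Promoters came from RefSeq (GRCh38.p14), for genes with a single entry. Python 3, numpy, pandas and scipy were used. Alternatives changed the pseudocount, the filters, the scaling and the gene types. Some genes of these lists are counted in the totals but not reported here by name.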

Additional observations from a re-analysis of the deposited data

Results flagged for a closer look

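The NF-kB target, cytokine and chemokine list had medians of opposite sign in the 2 hypoxia comparisons, 0.96 for the scrambled pair and -0.45 for the TET1-si pair. With 1 library a group this difference was not tested, and the comparisons share no library. Over all genes compared, 30 of the 1824 higher genes were at least 2-fold lower in the TET1-si pair, and 53.6% were 2-fold higher there too. Of the 562 lower genes, 22 were at least 2-fold higher in that pair and 56.8% were 2-fold lower. In 5 list members the changes were at least 2-fold and opposite in sign. OAS3, an interferon-induced enzyme, had 1.65 in the scrambled and -1.08 in the TET1-si pair. CXCL10 had 2.66 and -1.18, CXCL11 had 1.41 and -1.57, IL8 (CXCL8) had 1.29 and -1.16, and LTB, a lymphotoxin subunit, had 1.16 and -1.97. CXCL10 was at 0.127 and 0 FPKM and CXCL11 at 0.292 and 0.0319 FPKM (N-si, then H-si), so their changes in TET1-si cells rest on very low levels. Leukocyte markers summed to 4.43 FPKM in N-si against 5.78 in H-si. Endothelial markers summed to 22.2 FPKM there in normoxia and 48.4 in hypoxia, where the scrambled pair had 8.93 and 17.8, and epithelial identity markers to 2079 and 3741, where the scrambled pair had 6339 and 8182. The part of these markers in the results was not tested.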

How the results depend on the processing

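All alternatives were run on the same 4 libraries, and no library could be left out because each group had 1. No paired analysis was possible because the groups carry no replicate numbers to pair and the results come from no test. The 1824 higher and 562 lower genes became 1137 and 373 with a pseudocount of 1, 839 and 373 at a mean FPKM of at least 5, and 4333 and 1473 with no filter on FPKM, where many genes are near 0. Under the other 7 alternatives both counts stayed within 1.5 times. The median change of all genes, 0.06, was 0.17 after rescaling to TPM, -0.059 after median-of-ratios scaling, 0.093 after upper-quartile scaling, -0.027 at a mean FPKM of at least 5, 0.00 with no filter, 0.042 with the filter on the scrambled columns and 0.014 for protein-coding genes only. Of 240 list medians under alternatives, 238 kept their sign. Those that left the interval of the main median were 1.63 for interferon response, -0.73 for DNA replication and -0.48 for unfolded protein response after median-of-ratios scaling, and -0.20 for the respiratory chain after TPM. The medians that turned sign belonged to the list of DNA methylation, demethylation and coregulator genes (0.04, TPM) and to mitochondrial adaptation. Of 565 values for named genes, 563 kept their sign and the 2 that turned were HDAC3 after TPM and upper-quartile scaling. Depth limits genes near 1 FPKM most, and no setting can replace replicate cultures.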

Other observations

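Of 1663 long noncoding RNAs 325 (19.5%) were at least 2-fold higher in hypoxia and 75 were at least 2-fold lower, and of 11901 protein-coding genes 1316 (11.1%) were higher and 450 lower. Expression level moves with these shares. Among genes with a mean FPKM between 1 and 2 the shares were 27.3% for long noncoding RNAs and 27.4% for protein-coding genes, between 2 and 5 they were 19.5% and 22.6%, and between 5 and 20 they were 14.7% and 10.7%. No test was run on these shares.

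Genes listed at exactly 0 in a scrambled library numbered 54 among those compared, 45 in N-scr and 13 in H-scr, with some at 0 in both. Their changes depend on the pseudocount.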
